A study of Mus musculus with 45 samples.

Results

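The genes described here encode the secreted and membrane-bound metalloproteases that cut the extracellular matrix, the ADAMTS-like glycoproteins that share their non-catalytic domains, and the tissue inhibitors that block them. The rule that chose them reads the symbol alone and takes every Adamts, Adamtsl, Mmp or Timp gene that carries a number. It was set with earlier results of these data known, so counts of members called describe the members and are not a test. The rule found 51 members among 35675 annotated genes: 19 ADAMTS proteases, 5 ADAMTS-like proteins, 23 matrix metalloproteases (MMPs) and 4 inhibitors (TIMPs). Of these, 44 passed a filter on low counts and were tested. Adamts13, Adamts18, Mmp7, Mmp8, Mmp20, Mmp21 and Mmp27 did not pass, and none of these 7 had more than 14 reads in any library.

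MMPs are zinc proteases made as inactive proenzymes, and together they can degrade collagens, gelatin, proteoglycans and other matrix proteins. Most are secreted, while the membrane-type MMPs stay on the cell surface, where Mmp14 activates pro-Mmp2 with the help of Timp2. ADAMTS proteases cut more selectively: one branch cleaves aggrecan and versican, another removes the N-propeptides of fibrillar procollagens, and the ADAMTS-like proteins have no protease domain and bind fibrillin microfibrils. In muscle, matrix proteases are known for remodelling the niche of the satellite cell, the Pax7-expressing stem cell of muscle, and for the clearance of versican around differentiating and fusing myoblasts.

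RNA was sequenced from 45 mouse libraries in 15 groups of 3. All groups carry the genotype Tg:Pax7-nGFP/C57BL6;DBA2, a nuclear GFP reporter of Pax7 on a mixed background. Mouse embryonic fibroblasts (MEFs) in which doxycycline switches on MyoD, a transcription factor of muscle, were sampled untreated and after 2, 4, 6, 8 and 10 days of doxycycline, either alone ("MyoD alone", a treatment that gives multinucleated myotubes) or with the small molecules F/R/C ("with F/R/C", which gives muscle fibres and progenitor cells). F/R/C are known from work on induced myogenic progenitor cells (iMPCs) as forskolin, which activates adenylyl cyclase, RepSox, which inhibits the TGF-beta type I receptor, and a CHIR compound that inhibits glycogen synthase kinase. The other groups were bulk iMPCs from 13 days of doxycycline and F/R/C, iMPCs sorted for Pax7-GFP, bulk primary myoblasts from skeletal muscle, and myoblasts sorted for Pax7-GFP. The iMPCs are established clones that no longer need doxycycline, and the labels do not say how many clones or animals the replicates stand for, so p-values measure the spread between these samples, which may be technical.

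The libraries held 15.6 to 36.3 M reads, and the 3 bulk iMPC libraries and bulk myoblast replicate 2 were the deepest. Levels are CPM, read counts scaled to the TMM-adjusted library, and compare samples for 1 gene, whereas levels of different genes are compared in TPM, which is scaled to transcript length. Changes are log2 fold changes from edgeR's quasi-likelihood test, and a call needed an adjusted p under 0.05 (Benjamini-Hochberg, over 17325 genes) and at least a 2-fold change. That test gives no standard error. Each SE printed here is the size of the log2 fold change divided by the square root of the test's F statistic, and is approximate. The summed CPM of 10 fibroblast markers was 10398 to 14419 in MEFs, 2980 to 11263 on day 10 with MyoD alone, with replicate 2 lowest, and 1041 to 4704 on day 10 with F/R/C, and no marker was at 0 in these groups. Lum, one of the 10, was at 0 in both myoblast groups. The summed CPM of 12 markers of muscle differentiation was 33394, 19271 and 1165 in the 3 bulk myoblast libraries, so replicate 3 stood apart from the other 2. The sums of 4 endothelial and 4 macrophage markers did not exceed 11.2 CPM in any library. On day 10, 4 smooth muscle markers summed to 2565 to 7111 CPM with MyoD alone and 1003 to 1781 with F/R/C, and 5 proliferation markers to 30.3 to 310.2 and 366 to 811 CPM. Neither of these sums overlapped between the conditions, whereas the fibroblast sums did, and their part in the day 10 results was not tested. In bulk samples, fewer cells of a type and less RNA per cell cannot be told apart.

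Promoters are shown for Adamtsl2 and for the MMP cluster on chromosome 9. In the cluster, 3 of the 6 tested genes were lower than in MEFs on day 2 of MyoD alone, where 10.1% of all tested genes were. The cluster holds 10 MMP genes within 427.1 kb (GRCm38, chromosome 9, 7272514 to 7699585). RefSeq's promoter table (GRCm38.p6) held 36 of the 51 members. The 120 bases before the start site of 4 tested cluster genes are printed 5′ to 3′ on the plus strand, with capitals at a match to TGANTCA, the sequence bound by AP-1 factors:
Mmp3, chr9:7445702-7445821: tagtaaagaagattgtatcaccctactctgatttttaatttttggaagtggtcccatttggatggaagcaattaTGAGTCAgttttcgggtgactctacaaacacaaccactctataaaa
Mmp1a, chr9:7464021-7464140: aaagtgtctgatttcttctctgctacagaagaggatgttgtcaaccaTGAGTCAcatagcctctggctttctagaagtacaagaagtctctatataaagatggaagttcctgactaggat
Mmp10, chr9:7502222-7502341: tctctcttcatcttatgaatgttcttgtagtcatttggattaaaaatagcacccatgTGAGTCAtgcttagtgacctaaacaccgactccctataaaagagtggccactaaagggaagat
Mmp13, chr9:7272394-7272513: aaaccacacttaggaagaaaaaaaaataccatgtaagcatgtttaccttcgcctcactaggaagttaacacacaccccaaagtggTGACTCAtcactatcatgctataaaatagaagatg
The match began 46 bases before the start site in Mmp3, 73 in Mmp1a, 63 in Mmp10 and 35 in Mmp13. Within 250 bases before the start, on either strand, TGANTCA was found in 7 of the 36 member promoters and in 6.87% of all 27025 promoters. The 7 were Mmp10, Mmp13, Mmp1a, Mmp1b, Mmp20, Mmp3 and Mmp7, and each lies in the cluster. The 4 printed promoters are all among them. The 3 genes that fell with MyoD alone were Mmp1a, Mmp3 and Mmp12, and Mmp12 is not among the 7. Mmp13 and Mmp1b had a match and were not called on day 2 in either condition. Whether a match goes with the fall was not tested.

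The second promoter shown is that of Adamtsl2, the member with the largest gap between MEFs and day 2 of MyoD alone. The 200 bases before its start site, on the plus strand, have capitals at CAGCTG, one of the E-box sequences that MyoD binds:
Adamtsl2, chr2:27079179-27079378: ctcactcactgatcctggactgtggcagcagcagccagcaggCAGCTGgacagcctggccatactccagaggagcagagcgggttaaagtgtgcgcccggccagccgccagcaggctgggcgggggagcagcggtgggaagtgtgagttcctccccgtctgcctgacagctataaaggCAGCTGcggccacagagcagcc
The 2 matches began 158 and 22 bases before the start site. CAGCTG was found within 250 bases before the start in 9 of the 36 member promoters, namely Adamts2, Adamts9, Adamts12, Adamts17, Adamtsl2, Adamtsl5, Mmp25, Timp2 and Timp4, and in 12.8% of all promoters. TGACGTCA, the cAMP response element, was in 0 of the 36 (1.62% of all promoters), and ATCAAAG, a TCF/LEF sequence, was in 0 of the 36 (3.23%). A match describes the letters of a window and does not show binding.

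As a share of the transcript pool, the members had their highest group mean in MEFs and their lowest in sorted iMPCs. Their summed deposited TPM was 3273 ± 377 in MEFs (SD, n = 3 in each group), 1764 ± 305 and 2803 ± 807 on days 2 and 10 of MyoD alone, 1484 ± 273 on day 2 and 810.4 ± 294 on day 10 with F/R/C, 1053 ± 224 in bulk iMPCs and 533 ± 178 in sorted iMPCs. Bulk myoblasts held 1473 ± 262 TPM. Sorted iMPCs (648, 622 and 329 TPM) overlapped sorted myoblasts (862, 748 and 486). MEFs (3312, 2879 and 3629) overlapped day 10 of MyoD alone (3350, 1876 and 3183). Sorted libraries were quantified with another fragment length than all others, and its part in these sums was not tested. Inhibitors made up most of the sum in MEFs, where the 4 TIMPs held 1939.9 ± 493 TPM against 1011 ± 346 for the 23 MMPs and 225 ± 79.2 for the 19 ADAMTS genes. On day 10 the TIMP sum was 2148, 1260.5 and 1998 TPM with MyoD alone and 323, 139 and 301 with F/R/C, while the ADAMTS sum was 194 ± 57.6 and 188 ± 34.5. The TIMP values of the 2 conditions did not overlap, whereas the ADAMTS values did.

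The ratio of summed TIMP to summed MMP transcripts was 3.75, 3.96 and 2.91 on day 2 of MyoD alone and 2.69, 4.62 and 2.42 on day 10 of it. With F/R/C it was 2.91, 3.63 and 2.10 on day 2 and 0.850, 0.898 and 0.694 on day 10. All 3 day 10 libraries with F/R/C were thus below every library of MyoD alone. MEFs had ratios of 1.06, 2.55 and 2.74, bulk myoblasts 6.05, 4.64 and 4.34, bulk iMPCs 1.52, 1.13 and 1.30, and sorted iMPCs 1.45, 0.518 and 0.437. Sorted myoblasts had ratios of 2.74, 1.96 and 2.76. The ratio is a description of transcripts and was not tested.

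**Figure D1:**
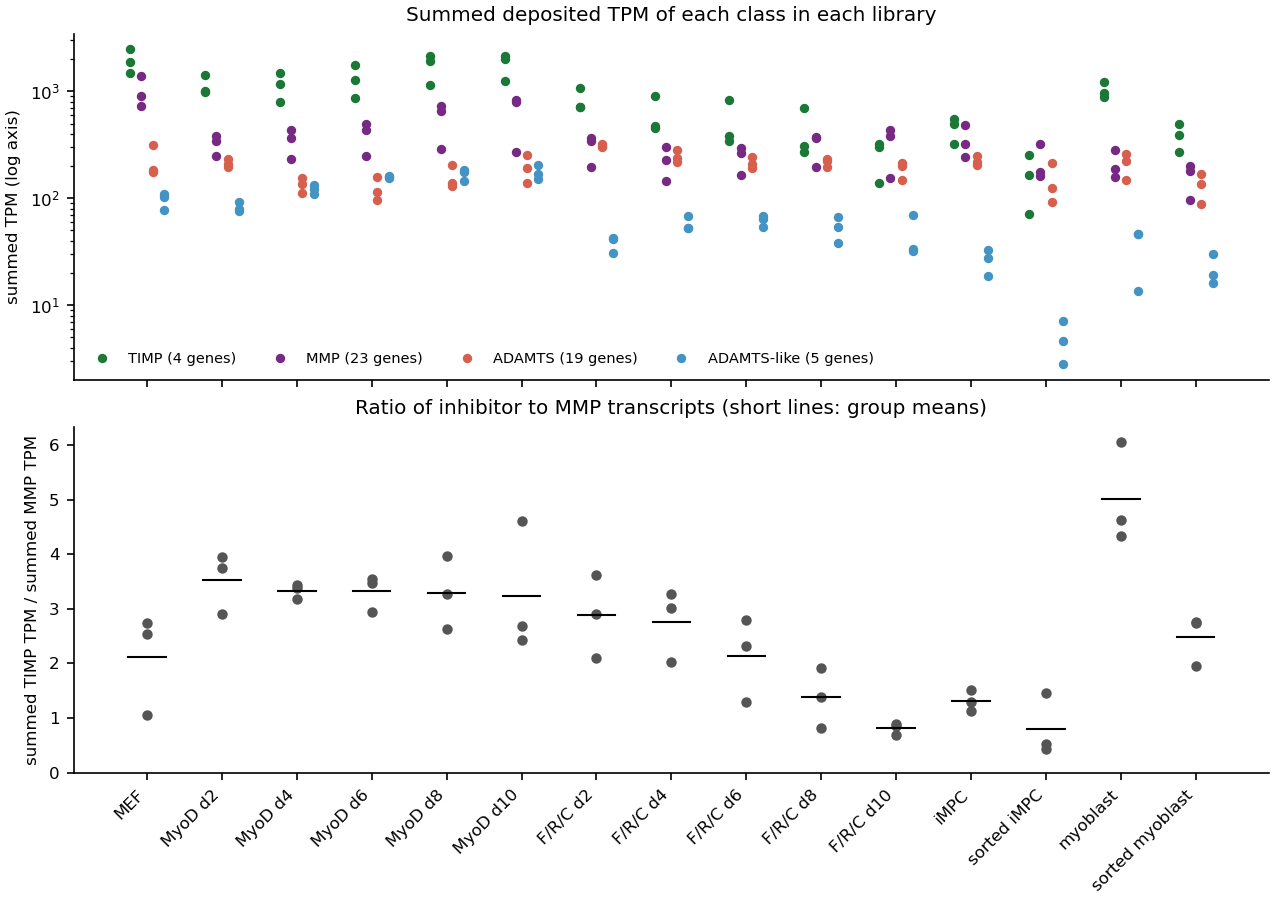
Summed TPM of the 4 classes (upper panel, log axis) and the ratio of summed TIMP to summed MMP TPM (lower panel) in each of the 45 libraries, by group; points are libraries and short lines are group means. With F/R/C the ratio goes from a mean of 2.88 on day 2 to 0.814 on day 10, while with MyoD alone the group means stay between 3.24 and 3.54.

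Against MyoD alone on the same day, F/R/C changed 5 members on day 2, 3 higher and 2 lower; 4.93% of all tested genes passed, 2.13% upward and 2.8% downward. On day 4 it changed 12, 6 higher and 6 lower, where 13.2% of all genes passed, 6.58% upward and 6.66% downward. On day 6 it changed 14, 8 higher and 6 lower, where 15.4% of all genes passed, 8.23% higher and 7.14% lower. On day 8 it changed 14, 5 higher and 9 lower, where 18.7% of all genes passed, 9.2% higher and 9.46% lower. On day 10 it changed 16, 4 higher and 12 lower, where 23.3% of all genes passed, 9.91% higher and 13.4% lower. As shares of the 44 tested members these are 11.4%, 27.3%, 31.8%, 31.8% and 36.4%. The median log2 fold change on day 10 was -0.81 over the members and -0.07 over all tested genes. In all, 24 members were called on at least 1 of the 5 days, 9 higher and 15 lower, and no member was called higher on one day and lower on another. The matching shares over all tested genes were not computed, so these counts describe the members only. Adamts15 and Adamts9 were higher and Adamtsl2 was lower on all 5 days. The F/R/C effect itself differed between day 10 and day 2 for 6 members in edgeR. It was more positive on day 10 for 1, Mmp9, and more negative for 5, Timp1, Timp2, Adamtsl5, Adamts6 and Adamtsl3. Of all tested genes, 6.01% were called, 2.24% more positive and 3.77% more negative. Each of these 6 calls was lost when at least 1 library was left out. Same-numbered libraries of the 2 conditions deviated together on days 2, 4 and 6. There the fit with the replicate block added 1 call, Mmp14 on day 6 (edgeR log2 fold change -1.10, adjusted p = 0.044). That block was shared by all 45 libraries, also by groups that the replicate numbers did not pair. A paired fit of the 2 conditions alone was not run.

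**Figure D2:**
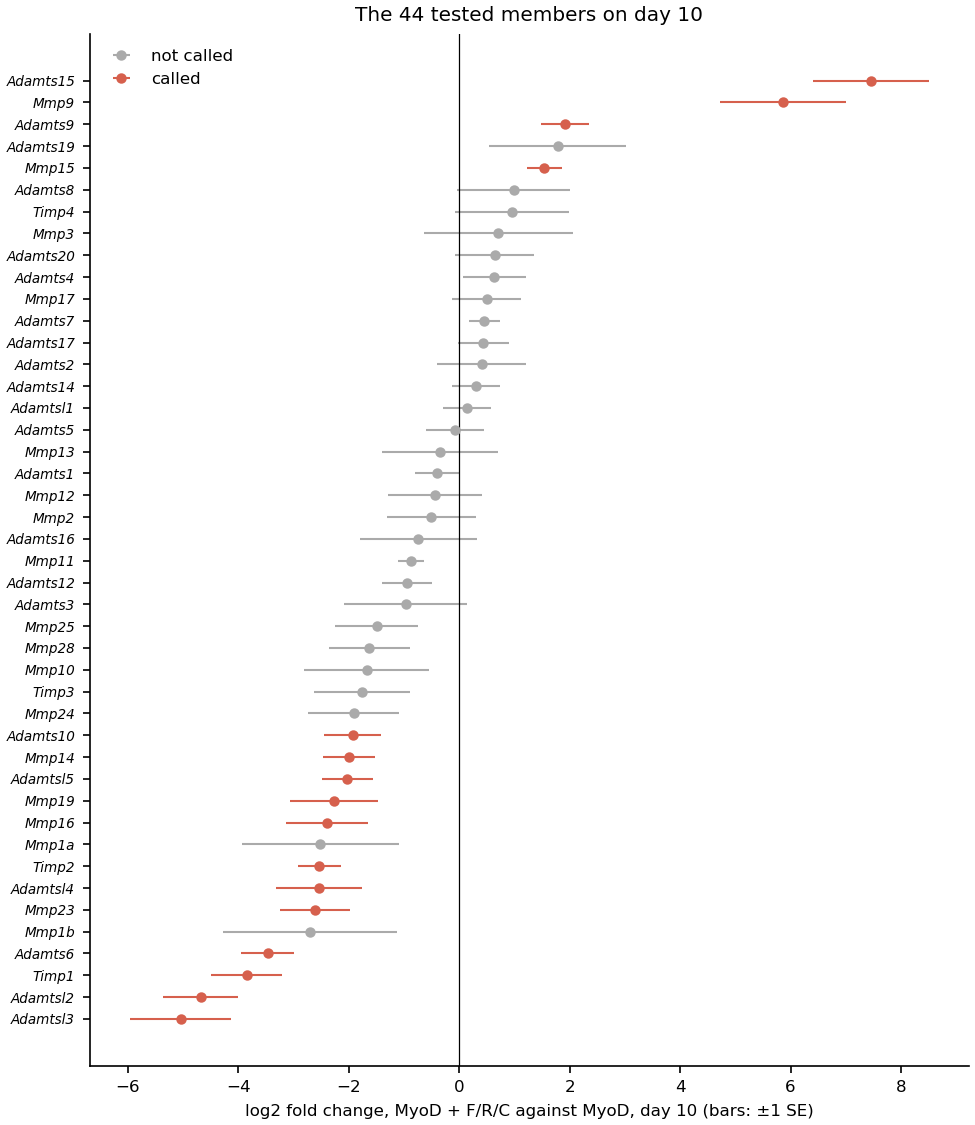
Log2 fold change of the 44 tested members on day 10, with F/R/C against MyoD alone. Bars are 1 approximate standard error, derived from the test's F statistic, and coloured points are called. The 4 called higher run from 1.54 (Mmp15) to 7.45 (Adamts15), and the 12 called lower from -1.93 (Adamts10) to -5.04 (Adamtsl3).

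Against MEFs, MyoD alone changed 17 members on day 2 (8 higher, 9 lower; 22.4% of all tested genes passed, 12.3% higher and 10.1% lower) and 10 on day 10 (9 and 1; 18.9%, 14.3% higher and 4.64% lower). With F/R/C the counts were 22 on day 2 (10 and 12; 20.4%, 11.5% higher and 8.93% lower) and 25 on day 10 (12 and 13; 34.8%, 19% higher and 15.8% lower). These comparisons share the MEF libraries. The plot of levels over time shows 8 members.

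**Figure D3:**
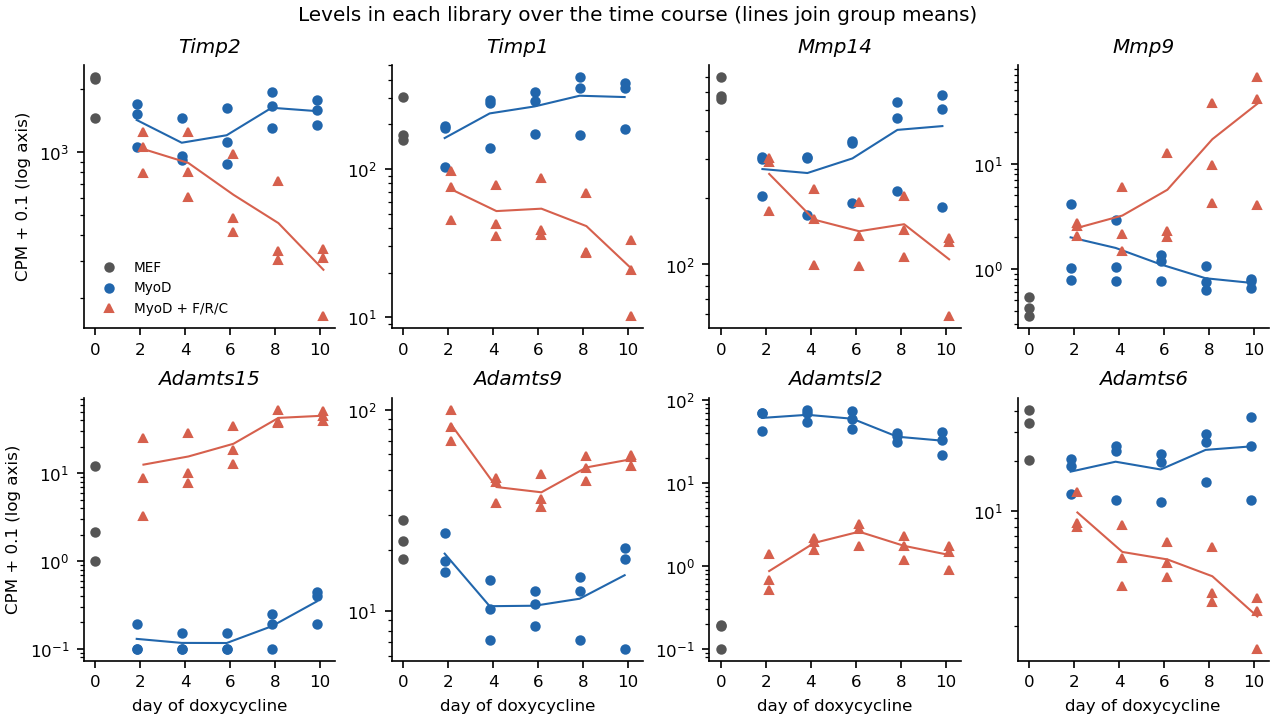
CPM plus 0.1 (log axis) of 8 members by day of doxycycline in each library: MEFs at day 0 (grey), MyoD alone (blue circles) and MyoD with F/R/C (red triangles), with lines through the group means. The conditions do not overlap on any day for Adamts15, Adamts9 and Adamtsl2, and draw apart with time for Timp2, Mmp9 and Adamts6.

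Among the inhibitors, Timp2 and Timp1 were much lower by day 10 with F/R/C than with MyoD alone, while Timp3 did not pass the test. Timp2, which inhibits MMPs and also takes part in pro-Mmp2 activation, is the most abundant member, with 1329 ± 296 TPM in MEFs. It measured 1461, 2251 and 2289 CPM in the 3 MEF libraries, 1694, 1522 and 1062 and 1785, 1347 and 1587 on days 2 and 10 of MyoD alone, and 1252, 1056 and 793 on day 2 and 342, 163 and 311 on day 10 with F/R/C. The conditions overlapped on day 2 and were far apart on day 10 (edgeR log2 fold change -2.53, SE 0.39, adjusted p = 1.2e-05). On day 8 Timp2 was also called (-1.84, adjusted p = 5.3e-04 in edgeR).

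Timp1, the inducible inhibitor, measured 156, 169 and 305 CPM in MEFs, 349, 186 and 382 on day 10 with MyoD alone and 32.8, 10.0 and 20.7 with F/R/C. The highest library with F/R/C was below the lowest with MyoD alone on each of the 5 days, and Timp1 was called on days 4, 6, 8 and 10. Its log2 fold changes were -2.19, -2.29, -2.93 and -3.85, with adjusted p = 0.007, 0.0048, 5.4e-04 and 2.6e-05 in edgeR's quasi-likelihood test. The day 4 call was lost without F/R/C day 4 replicate 2 (adjusted p = 0.051), and the day 8 value lay between -3.53 (without F/R/C day 8 replicate 1) and -2.60 (without F/R/C day 8 replicate 3). The fibroblast and smooth muscle marker sums given above had lower ranges with F/R/C as well, and their part in these results was not tested.

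Timp3, the inhibitor that binds the matrix and also blocks several ADAMTS proteases, measured 149.8, 263 and 266 CPM in MEFs, 615, 281 and 143 on day 10 with MyoD alone and 105, 52.7 and 148 with F/R/C. The groups overlapped and the difference did not pass the test (edgeR log2 fold change -1.76, SE 0.87, adjusted p = 0.1), so a change was not detectable at this spread. Its exons overlap those of Syn3 on the other strand, and the use of strand in counting is not given in the sources used here. Timp4 was scarce: its highest group mean was 0.995 ± 0.402 CPM, in bulk iMPCs. It was called on the higher side under F/R/C on days 6 and 8, where it measured 0.924, 0.306 and 0.433 CPM on day 8 against 0, 0 and 0.101 with MyoD alone, a pooled ratio of 15.9 (95% counting interval 4.09 to 137) with 2 reads in MyoD alone. The day 6 call was lost without MyoD day 6 replicate 1 (adjusted p = 0.077), without MyoD day 6 replicate 2 (adjusted p = 0.054) and without F/R/C day 6 replicate 1 (adjusted p = 0.092).

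Membrane-type MMPs split, with Mmp14 and Mmp16 lower and Mmp15 higher on day 10 with F/R/C. Mmp14, the activator of pro-Mmp2 and a collagenase of its own, was the most abundant protease (487 ± 65.6 TPM in MEFs). Its CPM was 702, 575 and 559 in MEFs, 581, 182 and 503 on day 10 with MyoD alone and 126, 58.2 and 132 with F/R/C. The day 10 groups did not overlap (edgeR log2 fold change -2.00, SE 0.47, adjusted p = 0.0012). Within MyoD alone, replicate 2 was the lowest for Mmp14 and for the fibroblast marker sum, whose part in the Mmp14 result was not tested. Mmp16, a related membrane-type protease, measured 16.2, 8.83 and 9.45 CPM in MEFs, 12.8, 1.78 and 6.62 on day 10 with MyoD alone and 1.35, 1.22 and 1.45 with F/R/C, where all 3 libraries were lower (edgeR log2 fold change -2.39, SE 0.74, adjusted p = 0.01). This call was lost without MyoD day 10 replicate 1 (adjusted p = 0.12).

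Mmp15, another transmembrane MMP, moved the opposite way to Mmp14. It measured 9.01, 6.97 and 11.7 CPM in MEFs, 30.1, 42.5 and 74.1 and 26.6, 33.4 and 29.4 on days 2 and 10 of MyoD alone, and 49.5, 59.7 and 63.1 and 86.6, 75.8 and 97.8 on the same days with F/R/C. All MEF libraries lay below all treated ones. Against MEFs the log2 fold change was 2.41 on day 2 with MyoD alone (adjusted p = 7.4e-07) and 3.23 on day 10 with F/R/C (adjusted p = 4.3e-09, edgeR). The conditions differed on days 6, 8 and 10 (1.32, 1.82 and 1.54, adjusted p = 0.0023, 7.7e-05 and 2.7e-04 in edgeR).

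Mmp17, a glycosylphosphatidylinositol-anchored MMP, was called on the higher side under F/R/C on days 2, 4 and 6, and replicate 1 was the highest of the F/R/C libraries. Its CPM on day 4 was 1.71, 1.12 and 2.12 with MyoD alone and 13.9, 3.11 and 3.05 with F/R/C. The calls were lost on day 2 without the filter on low counts (adjusted p = 0.051), without MyoD day 2 replicate 2 (adjusted p = 0.19), without MyoD day 2 replicate 3 (adjusted p = 0.12), without F/R/C day 2 replicate 1 (adjusted p = 0.21) and without F/R/C day 2 replicate 3 (adjusted p = 0.058), on day 4 when only the groups compared were fitted (adjusted p = 0.052), without MyoD day 4 replicate 1 (adjusted p = 0.068), without MyoD day 4 replicate 2 (adjusted p = 0.11) and without F/R/C day 4 replicate 1 (adjusted p = 0.35), and on day 6 without the filter on low counts (adjusted p = 0.056), without MyoD day 6 replicate 1 (adjusted p = 0.064), without MyoD day 6 replicate 2 (adjusted p = 0.13), without MyoD day 6 replicate 3 (adjusted p = 0.11) and without F/R/C day 6 replicate 1 (adjusted p = 0.31). Mmp24 and Mmp25 stayed under 1 CPM in every library. Mmp25 was called lower with F/R/C on day 2, where 1 read in all stood against 14 with MyoD alone, a ratio of MyoD alone to F/R/C of 15.2 (95% counting interval 2.31 to 643). This call was lost without the filter on low counts (adjusted p = 0.079), without MyoD day 2 replicate 1 (adjusted p = 0.15), without MyoD day 2 replicate 2 (adjusted p = 0.079), without MyoD day 2 replicate 3 (adjusted p = 0.068), without F/R/C day 2 replicate 2 (adjusted p = 0.15) and without F/R/C day 2 replicate 3 (adjusted p = 0.19).

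The 2 gelatinases differed from each other: Mmp9 climbed with F/R/C, and no difference in Mmp2 was called between the conditions. Mmp9, known in injured muscle and in inflammatory cells, measured 0.44, 0.33 and 0.25 CPM in MEFs and 0.555, 0.694 and 0.662 on day 10 with MyoD alone. With F/R/C it measured 1.97, 2.49 and 2.62 on day 2, 1.93, 2.18 and 12.6 on day 6, 9.56, 4.15 and 37.5 on day 8 and 66.8, 3.94 and 41.1 on day 10. Every F/R/C library on days 8 and 10 was above every library of MyoD alone, although replicate 2 was far below the other 2 on day 10. The test gave edgeR log2 fold change 4.56, SE 1.09, adjusted p = 0.0018 on day 8 and edgeR log2 fold change 5.86, SE 1.14, adjusted p = 1.6e-04 on day 10. With 1 library left out, the log2 fold change lay between 3.35 (without F/R/C day 8 replicate 3) and 5.08 (without F/R/C day 8 replicate 2) on day 8 and between 5.13 (without F/R/C day 10 replicate 1) and 6.51 (without F/R/C day 10 replicate 2) on day 10. The sum of the 4 macrophage markers was 4.13 to 4.87 CPM on day 10 with F/R/C, with Adgre1 at 0, and 3.42 to 5.85 CPM with MyoD alone.

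Mmp2, the fibroblast gelatinase, measured 643, 123 and 225 CPM in MEFs, 373, 141 and 361 on day 10 with MyoD alone and 272, 104 and 242 with F/R/C. The conditions overlapped (edgeR log2 fold change -0.50, SE 0.81, adjusted p = 0.65), and 1 MEF library was far above the other 2. Against MEFs, Mmp2 was called lower on day 2 with F/R/C (edgeR log2 fold change -2.30). In sorted iMPCs it measured 23.7, 485 and 278 CPM, so that replicate 1 was far below the others. Mmp2 was called higher there than in sorted myoblasts (edgeR log2 fold change 2.34). Each of these calls was kept in 3 of 6 fits with 1 library left out.

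Some genes of the chromosome 9 cluster were lower on day 2 than in MEFs in both conditions. Of its 10 genes 6 were tested, and against MEFs 3 were lower on day 2 with MyoD alone and 4 with F/R/C (10.1% and 8.93% of all tested genes were called lower). With MyoD alone these were Mmp1a, Mmp3 and Mmp12, and with F/R/C also Mmp10. All 4 F/R/C calls were lost without F/R/C day 2 replicate 2, with adjusted p = 0.054 for Mmp1a, 0.067 for Mmp3, 0.12 for Mmp10 and 0.051 for Mmp12 in edgeR. Mmp10 was also lost without MEF replicate 2 (adjusted p = 0.051), MEF replicate 3 (0.089) and F/R/C day 2 replicate 3 (0.12). The other cluster genes did not pass the test, and no cluster gene was called between F/R/C and MyoD alone in edgeR. Mmp3, stromelysin-1, which cleaves proteoglycans and activates other MMPs, was the most abundant at 145 ± 84.4 TPM in MEFs. It measured 234, 86.0 and 111 CPM in MEFs, 0.681, 0.573 and 2.29 on day 2 with MyoD alone and 5.99, 1.69 and 4.65 with F/R/C. The groups were far apart with MyoD alone (edgeR log2 fold change -6.89, SE 1.77, adjusted p = 0.003) and with F/R/C (edgeR log2 fold change -5.13, SE 1.60, adjusted p = 0.014). The first value lay between -7.83 (without MyoD day 2 replicate 3) and -6.37 (without MEF replicate 1) with 1 library left out.

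By day 10 the replicates of Mmp3 had spread, with 1.43, 2.92 and 56.8 CPM for MyoD alone and 8.15, 2.63 and 89.5 with F/R/C. Replicate 3 was the highest in both conditions, and neither condition was called against MEFs on day 10 (-2.81 and -2.10, adjusted p = 0.14 and 0.2 in edgeR). With the replicate block both were called (adjusted p = 0.017 and 0.025 in edgeR), but replicate numbers did not pair MEFs with day 10. Mmp10, Mmp12, Mmp1a, Mmp1b and Mmp13 showed the same replicate 3 as the highest of the 3 on day 10 with MyoD alone, at 1.16, 1.44 and 15.2 CPM for Mmp10 and 0.417, 0.149 and 3.45 CPM for Mmp13, the interstitial collagenase. Mmp1a (0, 1 and 0 reads on day 2 with MyoD alone against 34, 14 and 66 in MEFs) and Mmp1b are related copies, and how the counting divided reads between them was not tested, so both are uncertain. Mmp1a is a polymorphic pseudogene in the annotation, and the exons of Mmp12 and Mmp1b overlap on opposite strands.

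**Figure D4:**
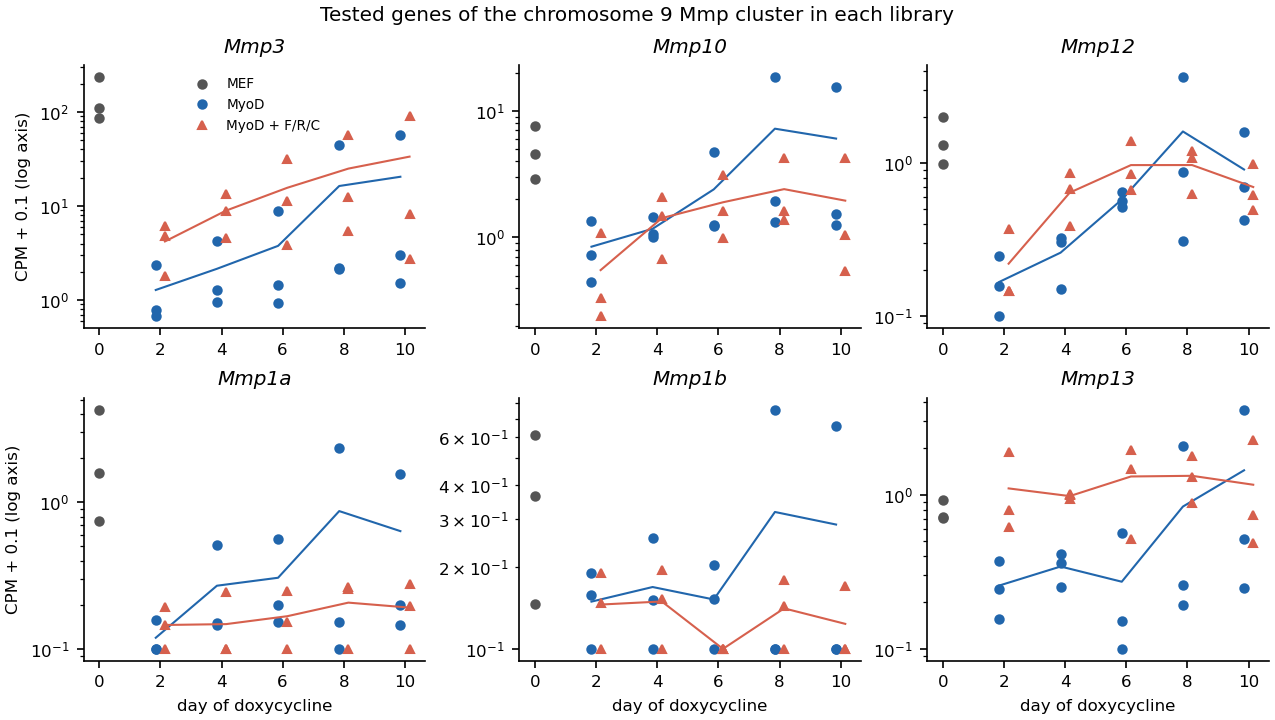
CPM plus 0.1 (log axis) of the 6 tested genes of the chromosome 9 Mmp cluster by day of doxycycline in each library, with colours as in the time course plot and lines through group means. Mmp3 is at 86.0 CPM or more in the 3 MEF libraries and at 5.99 CPM or less in the 6 day 2 libraries; on days 8 and 10, replicate 3 is the highest of the 3 libraries of MyoD alone for all 6 genes.

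Proteoglycan-cleaving ADAMTS genes included the largest differences between conditions. Adamts15, an aggrecanase and versicanase, was nearly silent in MyoD alone. Its reads there were 0, 0 and 2 on day 2, 0, 1 and 0 on day 4, 0, 1 and 0 on day 6, 2, 0 and 3 on day 8 and 2, 6 and 10 on day 10, against 70, 188 and 549 on day 2 and 1276, 922 and 1114 on day 10 with F/R/C. In CPM, the F/R/C libraries held 3.13, 8.82 and 25.3 on day 2, 7.56, 10.1 and 28.5 on day 4, 12.6, 18.0 and 33.9 on day 6, 38.0, 52.5 and 36.9 on day 8 and 50.7, 44.9 and 39.3 on day 10. No library with F/R/C came near any library of MyoD alone on any day. The pooled ratio was 372 (95% counting interval 102 to 3073) on day 2, where MyoD alone had 2 reads in all, and the interval covers counting error only. The adjusted p was 9.3e-05, 1.1e-05, 6.6e-06, 3.2e-06 and 3.6e-06 on the 5 days in edgeR. On day 10 the fit gave edgeR log2 fold change 7.45, SE 1.05, adjusted p = 3.6e-06. Left out one at a time, libraries moved the fitted log2 fold change between 7.28 (without F/R/C day 2 replicate 3) and 11.14 (without MyoD day 2 replicate 3) on day 2, 8.67 (without F/R/C day 4 replicate 3) and 11.45 (without MyoD day 4 replicate 2) on day 4, 9.45 (without F/R/C day 6 replicate 3) and 11.94 (without MyoD day 6 replicate 2) on day 6 and 8.44 (without MyoD day 8 replicate 2) and 9.62 (without MyoD day 8 replicate 3) on day 8, with every call kept.

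MEFs held Adamts15 at 12.0, 2.04 and 0.888 CPM, so replicate 1 started far above the other 2. Against MEFs it was lower on day 2 with MyoD alone, with a pooled ratio of MEFs to MyoD alone of 166 (95% counting interval 45.5 to 1372) (adjusted p = 1.0e-04, edgeR), and higher on day 10 with F/R/C (edgeR log2 fold change 3.16, SE 0.81, adjusted p = 0.0014). With 1 library left out, the first fitted value lay between -9.82 (without MyoD day 2 replicate 3) and -5.30 (without MEF replicate 1) and the second between 2.71 (without MEF replicate 3) and 5.01 (without MEF replicate 1).

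Adamts9, which cleaves versican and has roles at the base of cilia, was also higher with F/R/C on all 5 days. It measured 28.3, 17.9 and 22.1 CPM in MEFs. On day 2 the values were 17.7, 15.5 and 24.3 with MyoD alone and 82.3, 69.5 and 99.6 with F/R/C, and on day 10 they were 20.4, 6.39 and 18.1 and 52.7, 57.9 and 59.2. The conditions did not overlap on either day (edgeR log2 fold change 2.13, SE 0.44, adjusted p = 0.0022 and edgeR log2 fold change 1.92, SE 0.44, adjusted p = 8.9e-04). In contrast to Adamts15, its F/R/C group mean was highest on day 2, at 83.8 ± 15.1 CPM. Its exons overlap 2 antisense genes.

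Adamts20, a versicanase known for its part in melanoblast survival, was low in MEFs and rose in both conditions. It measured 0.396, 0.790 and 0.380 CPM in MEFs, 9.82, 15.5 and 10.8 on day 4 with MyoD alone and 71.3, 122 and 74.0 with F/R/C. The F/R/C libraries were all above those of MyoD alone on days 4 and 6 (2.89 and 2.80, adjusted p = 0.0063 and 0.0072 in edgeR). On day 10 the values were 25.3, 65.5 and 10.7 and 38.4, 50.9 and 68.7, the groups overlapped, and the difference was not called (edgeR log2 fold change 0.64, SE 0.72, adjusted p = 0.5). Against MEFs, Adamts20 on day 10 was 5.98 with MyoD alone and 6.62 with F/R/C on the log2 scale (adjusted p = 1.4e-05 and 1.6e-06, edgeR). The first value lay between 5.06 (without MyoD day 10 replicate 2) and 6.40 (without MEF replicate 2) with 1 library left out.

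Adamts5, Adamts4 and Adamts1, the best-known aggrecanases, had their highest time-course means on day 2 with F/R/C. Adamts5 measured 24.3, 18.3 and 29.5 CPM in MEFs, 186, 199 and 120.2 on day 2 with MyoD alone and 238, 367 and 204 with F/R/C, and both conditions were well above MEFs (edgeR log2 fold change 2.81, SE 0.56, adjusted p = 2.3e-04 and edgeR log2 fold change 3.49, SE 0.58, adjusted p = 2.2e-05). Adamts4 measured 41.1, 14.1 and 13.6 CPM in MEFs, 106, 129.5 and 200.2 on day 2 with MyoD alone, 139.6, 145 and 183 with F/R/C, and 32.9, 12.6 and 24.3 and 48.7, 19.4 and 40.4 on day 10. The day 2 libraries of both conditions stood above all MEF and day 10 libraries (edgeR log2 fold change 2.66, SE 0.60, adjusted p = 8.7e-04 for MyoD alone against MEFs). Left out one at a time, libraries moved that value between 2.35 (without MyoD day 2 replicate 3) and 3.37 (without MEF replicate 1). Adamts1 was higher with F/R/C on day 4, with 287, 214 and 164 CPM against 75.6, 64.2 and 46.8 for MyoD alone (edgeR log2 fold change 1.84, SE 0.41, adjusted p = 0.0013), and the conditions overlapped on day 10, at 95.1 ± 23.0 and 125 ± 34.0 CPM (edgeR log2 fold change -0.39, SE 0.40, adjusted p = 0.45).

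None of the procollagen N-propeptidases was called between the conditions on any day in edgeR, which does not show that they were alike. Adamts2, the main enzyme for type I procollagen, measured 52.3, 41.6 and 42.6 CPM in MEFs, 76.9, 9.41 and 39.2 on day 10 with MyoD alone and 50.8, 15.8 and 99.8 with F/R/C, with overlapping groups (edgeR log2 fold change 0.41, SE 0.80, adjusted p = 0.72). On day 4, however, its F/R/C libraries, at 56.1, 22.1 and 75.1 CPM, were all above those of MyoD alone, at 14.3, 12.3 and 21.8 (edgeR log2 fold change 1.66, SE 0.83, adjusted p = 0.15). Adamts14 measured 37.7, 54.2 and 80.9 CPM in MEFs, 64.1, 26.2 and 85.5 on day 10 with MyoD alone and 68.4, 50.6 and 97.3 with F/R/C (edgeR log2 fold change 0.30, SE 0.43, adjusted p = 0.61). The highest group mean of Adamts3 was 0.881 CPM.

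Among the other ADAMTS proteases, Adamts6 and Adamts10, which are tied to fibrillin microfibrils, fell below MyoD alone under F/R/C from day 4 to day 10. Adamts6 measured 20.0, 33.8 and 40.6 CPM in MEFs, 23.0, 11.5 and 24.6 and 36.9, 11.5 and 24.7 on days 4 and 10 of MyoD alone, and 8.09, 3.42 and 5.09 and 2.86, 1.36 and 2.37 on those days with F/R/C. The conditions did not overlap on either day, and the gap widened from -1.83 to -3.46 on the log2 scale (adjusted p = 0.0031 and 2.9e-06, edgeR). Adamts10 measured 76.5, 91.5 and 66.1 CPM in MEFs, 108, 35.0 and 40.4 on day 10 with MyoD alone and 21.7, 12.7 and 13.6 with F/R/C (edgeR log2 fold change -1.93, SE 0.51, adjusted p = 0.0032). Replicate 1 was the highest library of MyoD alone. The calls were lost on day 4 without MyoD day 4 replicate 1 (adjusted p = 0.18), without F/R/C day 4 replicate 1 (adjusted p = 0.057) and without F/R/C day 4 replicate 2 (adjusted p = 0.1), on day 6 without MyoD day 6 replicate 1 (adjusted p = 0.17), on day 8 without MyoD day 8 replicate 1 (adjusted p = 0.059) and on day 10 without MyoD day 10 replicate 1 (adjusted p = 0.1).

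Adamts17, a further microfibril-linked protease, was low in MEFs at 0.132, 0.232 and 0.190 CPM. On day 10 it measured 1.43, 3.37 and 1.08 with MyoD alone and 3.46, 1.95 and 2.51 with F/R/C, above every MEF library in both cases (edgeR log2 fold change 3.37, SE 0.56, adjusted p = 2.0e-05 and edgeR log2 fold change 3.80, SE 0.56, adjusted p = 1.3e-06). The first value lay between 2.72 (without MyoD day 10 replicate 2) and 3.64 (without MyoD day 10 replicate 3) when 1 library was left out. Adamts7, which cleaves cartilage oligomeric matrix protein, was raised on day 2, at 24.2, 25.6 and 22.6 CPM in MEFs, 47.1, 67.3 and 101 with MyoD alone and 43.7, 73.3 and 83.5 with F/R/C (edgeR log2 fold change 1.57, SE 0.28, adjusted p = 4.9e-05 and edgeR log2 fold change 1.47, SE 0.28, adjusted p = 1.2e-04). By day 10 it measured 24.8 ± 4.96 and 34.1 ± 6.04 CPM and was not called against MEFs in either condition. Adamts12 was lower under F/R/C on days 4 and 6, at 24.7 ± 7.85 against 66.9 ± 6.08 CPM on day 4 (edgeR log2 fold change -1.44, SE 0.46, adjusted p = 0.022). This call was lost without MyoD day 4 replicate 1 (adjusted p = 0.068), without MyoD day 4 replicate 3 (adjusted p = 0.054), without F/R/C day 4 replicate 1 (adjusted p = 0.066) and without F/R/C day 4 replicate 2 (adjusted p = 0.12). The day 6 call was lost without MyoD day 6 replicate 1 (adjusted p = 0.073), without MyoD day 6 replicate 3 (adjusted p = 0.071) and without F/R/C day 6 replicate 2 (adjusted p = 0.12). Adamts19 was called on the higher side under F/R/C on days 4 and 6, at 2.45, 3.05 and 0.285 CPM on day 4 against 0.315, 0.0508 and 0 (edgeR log2 fold change 3.87, SE 1.15, adjusted p = 0.014). The day 4 call was lost without MyoD day 4 replicate 2 (adjusted p = 0.068), without MyoD day 4 replicate 3 (adjusted p = 0.068) and without F/R/C day 4 replicate 2 (adjusted p = 0.057).

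Of the 5 ADAMTS-like genes, 1 was called lower with F/R/C on each of days 2 and 4, 2 on day 6, 3 on day 8 and 4 on day 10. The share of all tested genes called lower rose as well, at 2.8%, 6.66%, 7.14%, 9.46% and 13.4% on the 5 days. Adamtsl2, which binds fibrillin and the latent TGF-beta binding protein Ltbp1, had 2, 2 and 0 reads in the 3 MEF libraries. With MyoD alone it measured 43.1, 70.3 and 70.4 CPM on day 2, 54.2, 69.3 and 76.7 on day 4 and 33.5, 41.9 and 22.0 on day 10. With F/R/C it measured 0.581, 1.31 and 0.414, 1.87, 2.05 and 1.48 and 0.795, 1.36 and 1.62. Every library of MyoD alone was above every F/R/C library, and every F/R/C library was above every MEF library. The log2 fold change of F/R/C against MyoD alone was -6.31, -5.21, -4.58, -4.44 and -4.68 on the 5 days, with adjusted p = 1.4e-06 on day 2 and 5.0e-06 on day 10 in edgeR. Against MEFs, F/R/C was also higher on day 10 (edgeR log2 fold change 4.15, SE 1.00, adjusted p = 8.5e-04). The day 2 value lay between -6.91 (without F/R/C day 2 replicate 2) and -6.01 (without F/R/C day 2 replicate 3) with 1 library left out. The promoter of this gene is the one printed above with 2 CAGCTG matches.

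Adamtsl3 diverged later. It measured 3.43, 1.95 and 6.66 CPM in MEFs, 6.18, 3.38 and 4.94 and 26.9, 9.76 and 32.3 on days 2 and 10 of MyoD alone, and 10.1, 3.42 and 1.70 and 0.795, 0.146 and 1.09 with F/R/C. The groups overlapped on day 2 and were far apart on day 10 (edgeR log2 fold change -5.04, SE 0.92, adjusted p = 7.9e-05). Adamtsl5, another fibrillin-binding member, measured 49.1, 55.3 and 39.9 CPM in MEFs, 21.2, 11.9 and 21.2 and 65.3, 121 and 81.4 on days 2 and 10 of MyoD alone, and 14.5, 17.2 and 21.6 and 15.5, 16.4 and 33.8 with F/R/C. The day 10 groups did not overlap (edgeR log2 fold change -2.03, SE 0.46, adjusted p = 8.7e-04). Adamtsl4 was lower on day 10 with F/R/C, at 6.08 ± 3.83 against 35.6 ± 10.1 CPM (edgeR log2 fold change -2.54, SE 0.78, adjusted p = 0.0092), and the call was lost without F/R/C day 10 replicate 2 (adjusted p = 0.069). Adamtsl1 rose against MEFs in both conditions on day 10 (2.02 and 2.17, adjusted p = 0.0011 and 2.0e-04, edgeR) and did not pass the test between them (edgeR log2 fold change 0.15, SE 0.43, adjusted p = 0.81). For the 4 called lower on day 10, the share over all tested genes was 13.4%.

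Mmp19 and Mmp23 were the remaining MMPs called between the conditions on day 10. Mmp19, which cleaves basement membrane proteins, measured 168, 119.8 and 115 CPM in MEFs, 19.5, 16.9 and 14.6 and 45.6, 22.0 and 112 on days 2 and 10 of MyoD alone, and 12.6, 3.99 and 20.8 on day 10 with F/R/C. All MEF libraries were above all of these. It was lower than in MEFs on day 2 (edgeR log2 fold change -2.98, SE 0.81, adjusted p = 0.0047) and on day 10 with F/R/C (edgeR log2 fold change -3.42, SE 0.83, adjusted p = 8.8e-04). The call between conditions on day 10 (edgeR log2 fold change -2.26, SE 0.79, adjusted p = 0.022) was lost when only the groups compared were fitted (adjusted p = 0.066), without MyoD day 10 replicate 3 (adjusted p = 0.2), without F/R/C day 10 replicate 1 (adjusted p = 0.061) and without F/R/C day 10 replicate 2 (adjusted p = 0.13). Mmp23 measured 39.5, 7.38 and 19.8 CPM on day 10 with MyoD alone and 4.01, 2.14 and 4.73 with F/R/C, without overlap (edgeR log2 fold change -2.61, SE 0.63, adjusted p = 0.0014). That value lay between -2.93 (without MyoD day 10 replicate 2) and -1.79 (without MyoD day 10 replicate 1) with 1 library left out.

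The other tested members were scarce or were not called between the conditions on day 10. Adamts16 held 2, 0 and 0 reads in MEFs and 23, 25 and 2 on day 10 with MyoD alone, a ratio of 21.3 (95% counting interval 5.60 to 181). Its call was lost without MEF replicate 2 (adjusted p = 0.095), without MEF replicate 3 (adjusted p = 0.078), without MyoD day 10 replicate 1 (adjusted p = 0.058) and without MyoD day 10 replicate 2 (adjusted p = 0.099). Adamts8 measured 0.0440, 0.557 and 0.444 CPM in MEFs, and 1.94, 3.91 and 0.279 and 3.86, 6.77 and 1.48 on day 10 of the 2 conditions (edgeR log2 fold change 0.99, SE 1.02, adjusted p = 0.46). Mmp11 measured 45.8, 48.3 and 35.5 CPM in MEFs and 16.4, 14.9 and 22.5 on day 10 with F/R/C, where all 3 libraries were lower (edgeR log2 fold change -1.27, SE 0.23, adjusted p = 3.1e-05). Its exons overlap those of Chchd10 on the other strand. Mmp28 had a highest group mean of 5.53 ± 2.47 CPM.

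Between bulk iMPCs and the day 10 F/R/C cultures 3 members were called, 1 higher and 2 lower in iMPCs (9.57% of all tested genes were called, 3.33% higher and 6.24% lower): Timp4, Adamts8 and Adamts17. Adamts17 measured 0.602, 0.366 and 0.699 CPM in bulk iMPCs against 3.46, 1.95 and 2.51 on day 10 with F/R/C (edgeR log2 fold change -2.24, SE 0.48, adjusted p = 0.0013). Adamts8 measured 0.164, 0.0846 and 0.188 against 3.86, 6.77 and 1.48 (edgeR log2 fold change -4.73, SE 1.23, adjusted p = 0.0059). Timp4 was not called without F/R/C day 10 replicate 1 (adjusted p = 0.077), without F/R/C day 10 replicate 2 (adjusted p = 0.088) and without bulk iMPC replicate 2 (adjusted p = 0.064). Against MEFs, 24 members were called, 11 higher and 13 lower (35.5%, 19.2% higher and 16.2% lower), and the fitted values included Adamts20 7.01, Mmp9 5.87, Mmp15 3.04, Timp2 -2.24, Mmp14 -2.03 and Adamts6 -4.90 on the log2 scale. The Adamts6 value lay between -5.58 (without bulk iMPC replicate 1) and -4.54 (without bulk iMPC replicate 2) when 1 library was left out.

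Between bulk iMPCs and bulk myoblasts, 21 members were called, 14 higher and 7 lower in iMPCs (19.6%, 10.9% higher and 8.7% lower), and 15 without bulk myoblast replicate 3. The fibroblast marker sum was 2114 to 3743 CPM in bulk iMPCs and 340 to 585 in bulk myoblasts, without overlap, and its part in these differences was not tested. Adamts15 measured 44.3, 8.06 and 58.8 CPM in iMPCs and 0.0449, 0.225 and 0 in myoblasts (edgeR log2 fold change 8.38, SE 1.12, adjusted p = 1.6e-06). Adamts9 measured 28.1, 31.5 and 35.0 against 1.44, 3.81 and 1.20 (edgeR log2 fold change 3.84, SE 0.48, adjusted p = 6.9e-07), and Mmp9 27.6, 13.1 and 20.8 against 0.269, 0.200 and 0.0364 (edgeR log2 fold change 6.89, SE 1.24, adjusted p = 8.5e-05). For these 3 genes every iMPC library was above every myoblast library. With 1 library left out, Adamts15 lay between 7.87 (without bulk myoblast replicate 3) and 10.52 (without bulk myoblast replicate 2), and Adamts9 between 3.56 (without bulk myoblast replicate 3) and 4.60 (without bulk myoblast replicate 2).

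Adamts6 had the opposite pattern, with 1.86, 0.564 and 0.726 CPM in iMPCs and 41.2, 26.5 and 25.6 in myoblasts (edgeR log2 fold change -4.88, SE 0.51, adjusted p = 4.1e-08), and lay between -5.58 (without bulk iMPC replicate 1) and -4.57 (without bulk iMPC replicate 2) with 1 library left out. Adamts14, a procollagen N-propeptidase, measured 296, 169 and 431 CPM in myoblasts and 160.4, 112 and 104 in iMPCs. Its call (edgeR log2 fold change -1.25, SE 0.44, adjusted p = 0.026) was lost when only the groups compared were fitted (adjusted p = 0.079), without bulk myoblast replicate 3 (adjusted p = 0.17), without bulk iMPC replicate 2 (adjusted p = 0.08) and without bulk iMPC replicate 3 (adjusted p = 0.098). Mmp3 measured 45.2, 181 and 6.16 CPM in iMPCs and 0.494, 0.0501 and 0 in myoblasts (edgeR log2 fold change 8.93, SE 2.05, adjusted p = 0.0013). The value lay between 7.33 (without bulk iMPC replicate 2) and 11.13 (without bulk myoblast replicate 1) with 1 library left out. Timp3 measured 94.6, 18.9 and 157 CPM in iMPCs and 1.12, 6.96 and 21.2 in myoblasts (edgeR log2 fold change 3.20, SE 0.92, adjusted p = 0.0077). Those groups overlapped, and the call was lost when only the groups compared were fitted (adjusted p = 0.13).

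Between sorted iMPCs and sorted myoblasts, 22 members were called, 11 in each direction (30% of all tested genes were called, 12.4% higher and 17.6% lower). Adamts15 measured 14.8, 84.0 and 61.8 CPM in sorted iMPCs and 0.353, 0.318 and 0 in sorted myoblasts (edgeR log2 fold change 7.75, SE 1.06, adjusted p = 5.6e-07). Adamts9 measured 79.3, 82.9 and 43.7 against 6.00, 7.55 and 0.924 (edgeR log2 fold change 3.81, SE 0.48, adjusted p = 1.5e-07), and Adamts17 1.34, 5.37 and 2.17 against 0.318, 0.141 and 0.380 (edgeR log2 fold change 3.41, SE 0.53, adjusted p = 3.9e-06). Lower in sorted iMPCs were Adamts6, with 0.390, 0.121 and 0.465 against 16.8, 14.4 and 21.3 CPM (edgeR log2 fold change -5.76, SE 0.57, adjusted p = 3.0e-09), and Timp2, with 161, 178 and 70.7 against 522, 518 and 526 (edgeR log2 fold change -1.93, SE 0.39, adjusted p = 1.2e-04). For each of these 5 genes the 2 groups did not overlap. Adamts17 lay between 2.70 (without sorted iMPC replicate 2) and 3.77 (without sorted iMPC replicate 1) with 1 library left out.

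Of 25 members called between sorted and bulk iMPCs, 5 were higher and 20 lower in sorted cells (30.3% of all tested genes were called, 9.88% higher and 20.5% lower). Adamts14 measured 9.23, 6.42 and 12.5 CPM in sorted and 160.4, 112 and 104 in bulk iMPCs (edgeR log2 fold change -3.74, SE 0.48, adjusted p = 3.9e-07). Adamts5 measured 7.15, 6.99 and 10.0 against 155, 104 and 162 (edgeR log2 fold change -4.13, SE 0.60, adjusted p = 2.2e-06), and Adamts2 4.07, 2.02 and 2.38 against 50.4, 11.4 and 80.8 (edgeR log2 fold change -4.07, SE 0.93, adjusted p = 5.9e-04). The Adamts2 value lay between -4.48 (without bulk iMPC replicate 2) and -3.38 (without bulk iMPC replicate 3) with 1 library left out. Adamtsl1 measured 2.73, 1.01 and 0.672 against 28.3, 10.4 and 20.4 (edgeR log2 fold change -3.73, SE 0.50, adjusted p = 5.9e-07) and lay between -4.53 (without sorted iMPC replicate 1) and -3.35 (without sorted iMPC replicate 3). In these 4 genes every sorted library was below every bulk one.

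Both Adamts14 and Adamts5 were also lower in sorted iMPCs than in sorted myoblasts, where Adamts14 measured 278, 127 and 71.9 CPM and Adamts5 24.3, 72.8 and 155 (edgeR log2 fold change -4.09, SE 0.49, adjusted p = 7.5e-08 and edgeR log2 fold change -3.38, SE 0.58, adjusted p = 1.9e-05). With 1 library left out, the Adamts14 value lay between -4.43 (without sorted myoblast replicate 3) and -3.41 (without sorted myoblast replicate 1) and the Adamts5 value between -3.82 (without sorted myoblast replicate 1) and -2.60 (without sorted myoblast replicate 3). Adamts17 was higher in sorted than in bulk iMPCs (edgeR log2 fold change 2.40, SE 0.49, adjusted p = 1.5e-04), and lay between 1.70 (without sorted iMPC replicate 2) and 2.75 (without sorted iMPC replicate 1). Adamts4 measured 471, 62.2 and 32.7 CPM in sorted iMPCs, and its call against bulk iMPCs (edgeR log2 fold change 1.65) reversed to -0.34 without replicate 1. The sorted libraries summed to 1414 to 1949 CPM of the 12 differentiation markers against 22483 to 29268 in bulk iMPCs, and to 592 to 1493 CPM of the 10 fibroblast markers against 2114 to 3743, with no marker at 0. Their part in these differences was not tested. Sorted libraries were also quantified with another fragment length than all others, which cannot be told apart from sorting.

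Sorted and bulk myoblasts differed in 3 members, all lower in sorted cells (6.23% of all tested genes were called, 2.2% higher and 4.03% lower): Mmp10, Adamtsl2 and Mmp23. Mmp10 had 159 reads in the bulk libraries and 1 in the sorted ones, at 6.15, 0.100 and 0.655 CPM in bulk, where replicate 1 held most of them. Adamtsl2 measured 12.0, 13.5 and 0.328 CPM in bulk and 1.24, 1.27 and 2.99 in sorted myoblasts, and the groups overlapped, with bulk replicate 3 the lowest of all 6. The calls were lost for Mmp10 without bulk myoblast replicate 1 (adjusted p = 0.19) and without sorted myoblast replicate 2 (adjusted p = 0.075), for Adamtsl2 when only the groups compared were fitted (adjusted p = 0.55), without bulk myoblast replicate 1 (adjusted p = 0.065), without bulk myoblast replicate 2 (adjusted p = 0.068), without sorted myoblast replicate 1 (adjusted p = 0.054) and without sorted myoblast replicate 2 (adjusted p = 0.087) and for Mmp23 when only the groups compared were fitted (adjusted p = 0.49), without bulk myoblast replicate 3 (adjusted p = 0.12), without sorted myoblast replicate 1 (adjusted p = 0.061) and without sorted myoblast replicate 3 (adjusted p = 0.087).

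**Figure D5:**
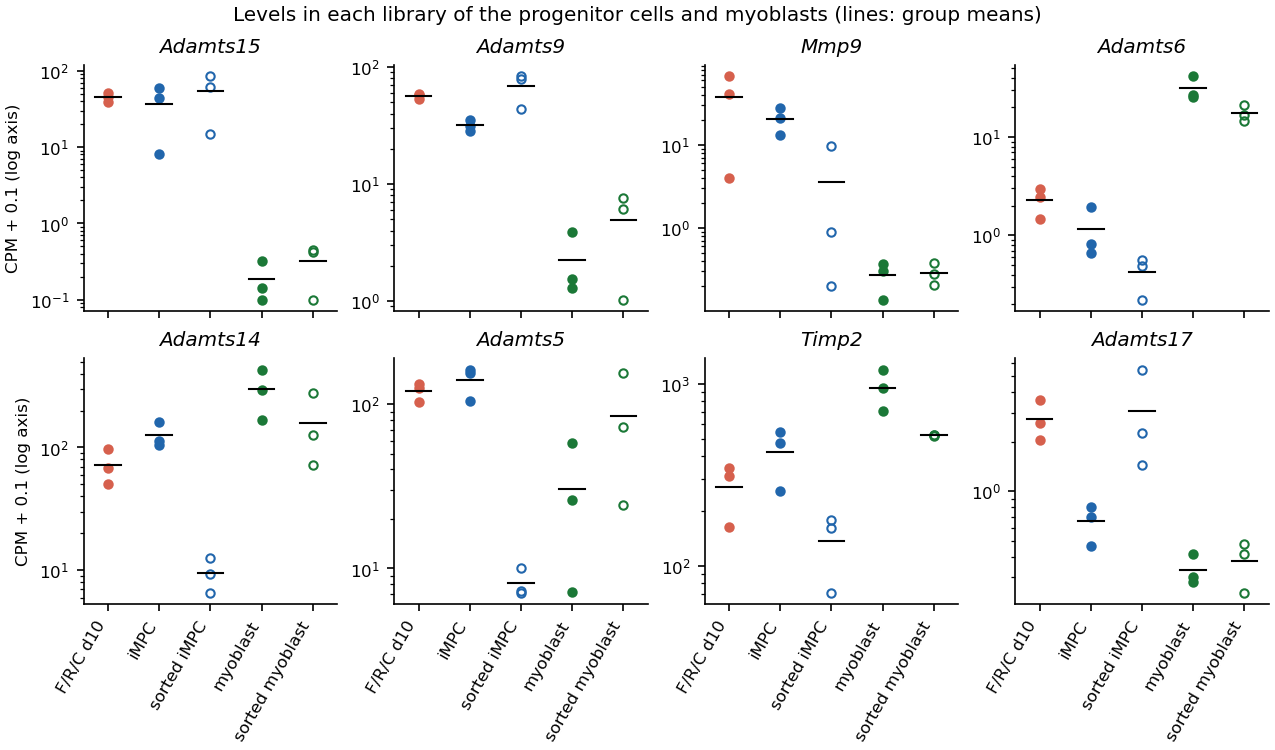
CPM plus 0.1 (log axis) of 8 members in each library of day 10 with F/R/C (red), bulk and sorted iMPCs (filled and open blue) and bulk and sorted myoblasts (filled and open green); short lines are group means. Adamts15 and Adamts9 are above both myoblast groups in every day 10 and iMPC library; Adamts14 and Adamts5 have their lowest group means in sorted iMPCs, at 9.37 and 8.06 CPM.

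Genes that activate, inhibit or clear these proteases were mostly lower with F/R/C on day 10. Of 14 listed, 13 were tested, and on day 10 against MyoD alone 9 were lower in edgeR and the other 4 did not pass, where 13.4% of all tested genes were called lower. The median log2 fold change was -2.03, against -0.07 over all genes. Plau, the urokinase activator, measured 369, 251 and 737 CPM with MyoD alone and 120.4, 56.8 and 93.0 with F/R/C (edgeR log2 fold change -2.33, SE 0.61, adjusted p = 0.0029). Lrp1, the receptor that clears protease and inhibitor complexes, measured 2080.1, 956 and 1566 against 261, 96.9 and 242 (edgeR log2 fold change -2.94, SE 0.53, adjusted p = 6.7e-05), and Reck, a membrane-anchored MMP inhibitor, 32.6, 17.4 and 27.4 against 7.87, 4.48 and 8.19 (edgeR log2 fold change -1.91, SE 0.38, adjusted p = 2.3e-04). None of these 3 genes overlapped between conditions on day 10. Furin, the proprotein convertase that activates Mmp14, had a log2 fold change of -1.31 (adjusted p = 3.3e-04, edgeR). The same list had 2 lower on day 2, where 2.8% of all tested genes were. This list and the lists of the next paragraph were drawn up with earlier results of these data known. Their counts and medians describe the listed genes and are not a test.

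Other metalloproteases and ADAMTS-related glycoproteins, listed together, did not move as one: 2 of 12 were higher and 4 lower on day 10, against 9.91% and 13.4% of all tested genes. Tll2 was higher with F/R/C, at 16.1, 16.5 and 6.67 against 0.278, 1.14 and 1.29 CPM (edgeR log2 fold change 3.84, SE 0.67, adjusted p = 4.5e-05), while its relatives Tll1 (-5.27) and Bmp1 (-2.26), which remove procollagen C-propeptides, were lower (adjusted p = 1.4e-06 and 1.2e-04 in edgeR). Of 16 substrates 14 were tested, and on day 10 Fbn2 was higher and 5 were lower, against the same shares of all genes. Fbn2, a fibrillin, measured 113, 86.4 and 73.1 CPM with F/R/C against 15.3, 11.5 and 14.4 with MyoD alone (edgeR log2 fold change 2.73, SE 0.47, adjusted p = 3.7e-05), and Fn1, fibronectin, 837, 323 and 590.2 against 19212, 11001 and 11586 (edgeR log2 fold change -4.58, SE 0.79, adjusted p = 4.4e-05). Versican, the substrate shared by Adamts1, Adamts4, Adamts5, Adamts9, Adamts15 and Adamts20, did not pass the test on day 10 (edgeR log2 fold change -0.85, SE 0.54, adjusted p = 0.21).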

How the data were processed

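RNA of 45 libraries was read as TruSeq stranded single-end reads, per the labels' protocols. Reads were quantified per transcript, and the deposited files hold kallisto estimated counts and TPM, per the file headers. Trimmomatic 0.36, kallisto 0.44, edgeR 3.28 and GRCm38.p6 are named in the submitters' processing notes. Estimated counts were summed over each gene's GENCODE M21 transcripts and rounded, and TPM was summed as deposited; 121104 of 121843 transcripts matched. Genes were filtered with filterByExpr by group, scaled by TMM and fitted in edgeR 4.0.16 (R 4.3.3) with 15 groups in 1 quasi-likelihood model (30 residual degrees of freedom, no block). Calls needed a Benjamini-Hochberg adjusted p under 0.05 over 17325 genes and a log2 fold change of 1 or more in size. Members followed the symbol rule, and the rule and the lists were chosen with earlier results of these data known. The text names the tested members that were called in the comparisons of the design, by role, with the most abundant ones.

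In some comparisons where a group held 1 to 3 reads in all, a ratio with its exact 95% counting interval is given. Others show reads or fitted values, and fitted values there rest on those few reads. Such intervals and the floor of 3 reads cover counting error only. Same-numbered libraries with F/R/C and MyoD alone deviated together on days 2, 4 and 6 (lowest correlation 0.346, 0.241 and 0.223), which is where pairing was taken to hold; on days 8 and 10 the lowest was 0.0791 and 0.0617. Alternatives were DESeq2 1.42.0, RLE scaling, no filter, no minimum fold, a replicate block, only the groups compared, and each library left out. In simulated data for day 10 with F/R/C against MyoD alone, with 17325 genes of which 200 changed 4-fold, 71% of those were recovered, with 6 false among 148 calls. The simulation gave each gene 1 mean in all groups apart from those changes, whereas 23.3% of genes were called in the data. Its recovery and false calls therefore need not hold for the data.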

Additional observations from a re-analysis of the deposited data

Results flagged for a closer look

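The effect of F/R/C against MyoD alone differed between day 10 and day 2 for 6 of the 44 tested members, by the interaction term in edgeR's quasi-likelihood test (6.01% of all tested genes were called). The difference, day 10 minus day 2 on the log2 scale, was -2.70 for Timp1 (SE 0.82, adjusted p = 0.037), -2.07 for Timp2 (SE 0.53, adjusted p = 0.017) and 5.56 for Mmp9 (SE 1.43, adjusted p = 0.017). It was -2.00 for Adamtsl5 (SE 0.64, adjusted p = 0.046), -2.64 for Adamts6 (SE 0.63, adjusted p = 0.012) and -5.11 for Adamtsl3 (SE 1.17, adjusted p = 0.0089) in the same edgeR fit. Each of the 6 lost its call when at least 1 library was left out, and without F/R/C day 2 replicate 1 no member was called, while 13 had an unadjusted p under 0.05.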

How the results depend on the processing

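Of 239 calls of a member in a comparison, 128 held under every alternative in which the member was tested. With only the groups compared, 215 of the 239 were tested and 31 of these were lost. The calls not tested there were not counted as lost. The count of members called was 3 without the filter on low counts and 8 when only the groups compared were fitted for F/R/C against MyoD alone on day 2 (5 as reported). With only the groups compared it was 10 for bulk iMPCs against bulk myoblasts (21), 11 for sorted iMPCs against sorted myoblasts (22), 16 for sorted against bulk iMPCs (25) and 0 for sorted against bulk myoblasts (3), where 6 had an unadjusted p under 0.05 in edgeR and DESeq2 on all groups called 6. With the replicate block it was 10 for the change of the F/R/C effect (6), 5 for bulk iMPCs against day 10 with F/R/C (3) and 6 for sorted against bulk myoblasts (3). The cause was not tested.

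With 1 library left out, counts ran from 11 to 16 for day 2 of MyoD alone and 12 to 20 for day 2 with F/R/C against MEFs, and 8 to 13 and 21 to 26 on day 10. Between the conditions they ran from 3 to 4 on day 2, 8 to 12 on day 4, 9 to 13 on day 6, 11 to 15 on day 8 and 14 to 17 on day 10, and from 0 to 8 for the change of the effect. They ran from 19 to 21 for bulk iMPCs against MEFs, 2 to 4 against day 10 with F/R/C, 15 to 20 against bulk myoblasts, 17 to 20 for sorted iMPCs against sorted myoblasts, 17 to 24 for sorted against bulk iMPCs and 2 to 4 for sorted against bulk myoblasts. Adamts16 in bulk iMPCs against MEFs ran from -0.17 (without bulk iMPC replicate 2) to 7.44 around a reported 4.57, and Adamts4 in sorted against bulk iMPCs from -0.34 (without sorted iMPC replicate 1) to 2.19 around 1.65. Members with few reads, such as Mmp1b, Mmp24 and Mmp25, are limited by depth.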
